A study of Mus musculus with 2 samples.

Results

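The transfer RNA (tRNA) genes of the mouse genome were examined for peaks of KMT2D, a histone H3 lysine 4 methyltransferase, in cells of the immortalised mouse hippocampal line HT22. Members were all 403 nuclear genes of biotype tRNA whose symbol begins with n-T in a RefSeq gene table of GRCm38.p6, of 49595 genes placed on the main chromosome sequences. A gene counted as having a peak when a peak summit lay within 500 bp of its span, so genes with a peak were chosen by the summit positions of the deposited list: 136 genes met this and 267 did not. In each symbol the capital letter after n-T is the amino acid in single-letter code and the next 3 letters are the anticodon. The study's wild-type cells, labelled as a wild-type clone and harvested at 70% confluency, gave 1 ChIP library, made with an antibody against KMT2D, and 1 input library without one. The deposited result is 1 list of 3738 peaks of the ChIP library over the input on the build mm10, which is the same build as GRCm38. Neither library has a replicate, so the libraries were not tested against each other. Since peaks chose the genes, the counts and folds are a description of this list. A peak list holds no expression, so neither the cell label nor tRNA transcription could be checked in it.

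tRNA genes are transcribed by RNA polymerase III from a promoter that lies inside the gene itself. This promoter consists of an A box near the start and a B box near the end. The factor TFIIIC binds both boxes and brings in TFIIIB, which recruits the polymerase. The genome carries many more tRNA genes than there are anticodons, and only some are active in a given cell type. KMT2D is best known at enhancers of genes read by RNA polymerase II.

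No genome sequence was used here, but RefSeq's promoter and hairpin tables for GRCm38.p6 overlap 11 tRNA genes, 6 of them with a peak, and cover 5 whole. The 7 sequences below are those in which the strand and the anticodon could be read, and they show what a tRNA gene with a summit, and one without, looks like. They were picked because they match the pattern below, which was chosen after the sequences were seen, so that all hold it is not a result. They are written 5′ to 3′ on the strand that reads the element. Capitals mark the anticodon and then the B box core GTTCNANNC, a pattern searched on both strands, which 9.32% of all 32851 promoter windows of 300 bases held. With a peak were n-TRtcg5, whole, at chr7:79466419-79466491 on the plus strand, and n-TLaag4, 71 of its 82 bases, at chr7:120917528-120917598 on the plus strand.
n-TRtcg5: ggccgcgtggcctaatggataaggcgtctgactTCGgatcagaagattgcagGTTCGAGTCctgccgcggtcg
n-TLaag4: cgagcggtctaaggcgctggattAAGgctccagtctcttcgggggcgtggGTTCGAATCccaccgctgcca
Without a peak were n-THgtg7, 62 of its 72 bases, at chr3:96452495-96452556 on the plus strand, n-TTagt9 at chr7:35234770-35234843 on the minus strand, n-TAagc16 at chr13:21222586-21222657 on the plus strand, n-TVcac9 at chr13:23446142-23446214 on the minus strand, and n-TItat14 at chr13:21896938-21897031 on the minus strand. The last was read from the RNA letters of the hairpin of Mir1983, which contains it.
n-THgtg7: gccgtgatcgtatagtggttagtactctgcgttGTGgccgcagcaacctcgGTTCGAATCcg
n-TTagt9: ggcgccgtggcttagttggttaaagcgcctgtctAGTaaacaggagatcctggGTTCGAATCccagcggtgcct
n-TAagc16: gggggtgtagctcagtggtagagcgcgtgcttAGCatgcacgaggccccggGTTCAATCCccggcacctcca
n-TVcac9: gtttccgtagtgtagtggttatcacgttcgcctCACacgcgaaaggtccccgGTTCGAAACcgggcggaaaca
n-TItat14: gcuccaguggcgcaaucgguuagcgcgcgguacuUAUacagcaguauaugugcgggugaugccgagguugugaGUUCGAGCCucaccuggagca

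In all 7 the anticodon of the symbol began at base 33 to 35 of the gene, and the B box core followed it. The anticodon was looked for only in a narrow range at this place in the gene, so its position is not a result. The pattern was also found in the covered end of n-TNgtt7, 8 genes in all. The 3 others, n-TNgtt6, n-TLcaa3 and n-TRacg6, were covered over 47, 17 and 25 bases and held no match there. The stricter core GGTTCGA, which overlaps the other pattern and was also searched on both strands, was found in 0.910% of promoter windows. It was missing from n-TAagc16 and n-TItat14 among the 8. All 3 matched genes with a peak thus held the stricter core, as did 3 of the 5 without, too few genes to compare. In the 3 matched genes with a peak, of 106 summits in all, the summit lay outside the B box core. It lay at base 32 of n-TRtcg5, whose B box core spans bases 53 to 61. It lay at base 54 of n-TLaag4, with its core at bases 62 to 70, and at base 52 of n-TNgtt7, with its core at bases 54 to 62.

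The summits sat on the tRNA genes themselves and not merely near them. Of the 106 summits within 500 bp of a tRNA gene, 102 (96.2%) lay inside the span of a tRNA gene, although spans had a median of 72 bp and ran from 70 to 107 bp. Another 3 lay within 50 bp of a span, and the last lay 246 bp from n-TRtct4. The median distance from a summit to the middle of the nearest tRNA gene was 12 bp (interquartile range 4.5 to 18.4 bp). The median peak at a tRNA gene was 272 bp wide, so the summits were placed more finely than the peaks themselves.

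**Figure D1:**
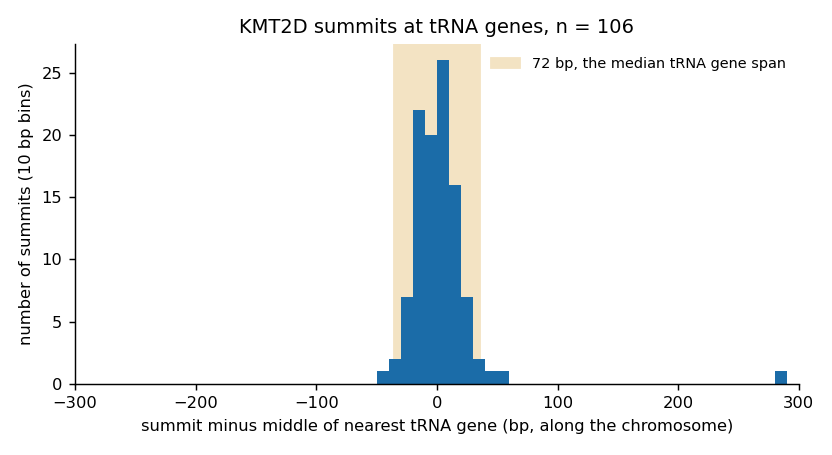
Position of the 106 summits at tRNA genes relative to the middle of the nearest tRNA gene, in bp along the chromosome (x axis), as the number of summits in bins of 10 bp (y axis). The shaded band is 72 bp wide, the median gene span, and 1 summit lies far outside it.

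Because tRNA genes stand close together, a gene could be counted through its neighbour. Of the 136 genes with a peak, 102 had a summit inside their own span and 4 were the nearest tRNA gene to a summit just outside it. The other 30 lay within 500 bp of a summit that was nearer to another tRNA gene, and the interval of such a peak overlapped 25 of them. The 4 genes nearest to an outside summit were n-TTcgt5 (6 bp), n-TRtcg3 (11 bp), n-TFgaa6 (23 bp) and n-TRtct4 (246 bp). No more than 3 tRNA genes shared a summit, which happened at 4 summits, while 27 had 2 genes in the window and 75 had 1. The widest of these peaks, 930 bp on chromosome 19 from 12011412 to 12012341, had its summit nearest to n-TVtac1 and covered n-TRtct1 and n-TVtac2 as well. The genes just inside the limit were n-TMcat6 and n-TDgtc5, at 436 and 488 bp, and those just outside were n-TFgaa4 and n-TAcgc10, at 562 and 584 bp. Both genes just inside owed their count to a neighbour's summit.

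The share of tRNA genes with a peak was 33.7%, while 5.05% of all genes had a summit within 500 bp of their span. Long spans catch more summits, and among protein-coding genes the share was 7.97%. Among other genes no longer than the longest tRNA gene it was 0.553%, 14 of 2531, a limit that leaves out longer RNA genes. Of any length, 13 of 62 ribosomal RNA genes had such a summit, so tRNA genes were not the only class with frequent peaks. Small nuclear RNA genes had 20 of 997, small nucleolar RNA genes 3 of 1330 and microRNA genes 12 of 1228. The contrast of tRNA genes with other genes is the one that chose the members, so nothing further is read from it.

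Fold values are the authors', from the deposited peak list, and set the ChIP pileup at a summit against the background taken from the input. At tRNA genes the median fold was 7.56, with quartiles of 6.17 and 9.44 and extremes of 2.70 and 13.2. The same measure was 4.40 over all 3632 other peaks, 3.67 at the 972 peaks within 2 kb of a protein-coding gene end with no tRNA gene in the window, and 4.22 at 55 peaks at other small RNA genes. Of the 106 summits, 86 (81.1%) had a fold at or above 5.75, the upper quartile of the whole list. The pileup recovered for these summits had a median of 50.5 ChIP fragments at tRNA genes and 30 at other peaks, while the background medians were close, at 5.71 fragments at tRNA genes and 6.05 at other peaks. Peaks at tRNA genes made up 2.84% of the list but 24% of its 50 highest folds, 12 peaks, and 19.5% of the highest 200, 39 peaks. Of the 20 highest folds only 1 was at a tRNA gene. The plot of folds by position shows the tRNA peaks high as a class, with higher single peaks elsewhere in the list.

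**Figure D2:**
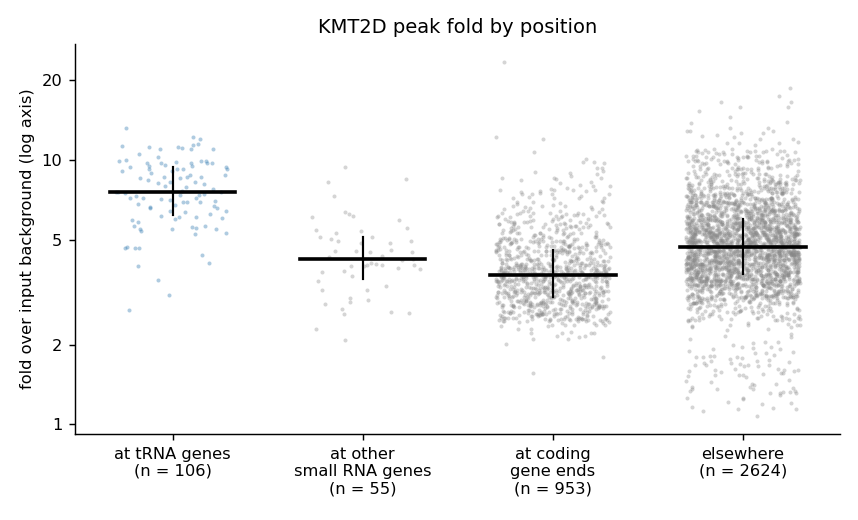
Fold over input background (log axis) of each peak, 1 point per peak, in 4 groups by position. Bars mark medians and vertical lines interquartile ranges, and the median at tRNA genes is 7.56.

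The fold was close in tRNA genes near and far from protein-coding genes. The 34 summits within 2 kb of a protein-coding gene end had a median fold of 7.50, and the 69 in intergenic sequence had 7.54. The remaining 3 lay inside protein-coding genes, with folds of 8.12, 9.22 and 12.02. Their backgrounds were also close, with medians of 6.23 fragments near gene ends and 5.49 in intergenic sequence.

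All 20 amino acids had at least 1 tRNA gene with a peak, but in unequal shares. The shares were highest for arginine (15 of 24 genes) and proline (10 of 16), both 62.5%, followed by tyrosine (6 of 10, 60%), leucine (14 of 25, 56%) and tryptophan (4 of 8, 50%). Isoleucine had 7 of 16, phenylalanine 3 of 7, threonine 7 of 17 and valine 9 of 22, from 40.9% to 43.8%. Histidine (4 of 11), lysine (9 of 26), glycine (9 of 28), serine (7 of 22), methionine (5 of 16), aspartate (5 of 16) and asparagine (4 of 13) ran from 30.8% to 36.4%, close to all tRNA genes. Glutamate (5 of 20, 25%), alanine (8 of 33, 24.2%) and glutamine (3 of 16, 18.8%) were lower. Cysteine was lowest, with 2 of 57 genes (3.51%).

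Wilson 95% intervals on these shares are wide. They ran from 42.7% to 78.8% for arginine, from 38.6% to 81.5% for proline and from 0.968% to 11.9% for cysteine. Among these 3, the cysteine interval alone lay below the 33.7% of all tRNA genes and the other 2 lay above it. The leucine interval, from 37.1% to 73.3%, also lay above it. Outside the 3 arrays without a peak described below, the share over all tRNA genes was 39.7%, which lies inside the proline and leucine intervals. The intervals treat genes as separate draws, which genes that share a summit or a sequence are not. Giving each summit to its nearest gene alone left arginine highest, with 13 of 24 genes, and lowered tyrosine to 3 of 10 and aspartate to 2 of 16. Every one of the 8 alanine, 7 isoleucine, 4 histidine, 4 asparagine and 2 cysteine genes with a peak was the nearest to a summit.

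**Figure D3:**
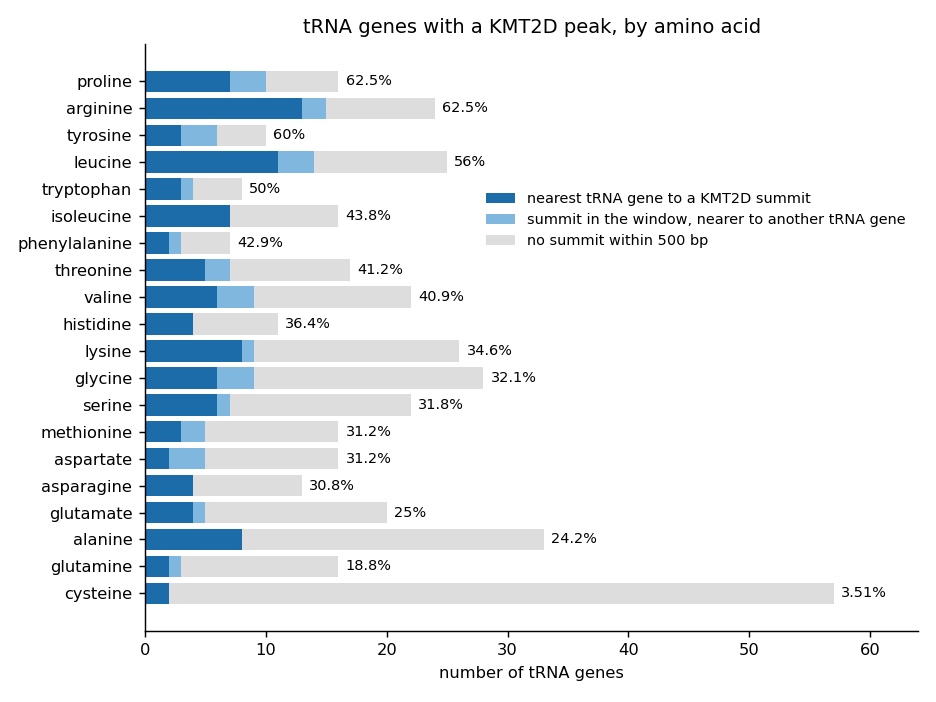
Number of tRNA genes per amino acid (x axis), split into genes nearest to a KMT2D summit, genes within 500 bp of a summit that is nearer to another tRNA gene, and genes with no summit within 500 bp. Percentages give the share of genes with a peak, from 62.5% for proline and arginine to 3.51% for cysteine.

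By anticodon, 42 of 48 had at least 1 gene with a peak. The 6 without any were glycine ACC, histidine ATG, isoleucine TAT and serine GGA, each with 1 annotated gene, lysine TTT with 2 genes and serine TGA with 3. These 6 held only 9 genes together. All 3 valine TAC genes had a peak, as had 4 of 5 leucine AAG genes, 4 of 5 arginine CCT genes, 3 of 4 leucine CAA genes and 3 of 4 threonine TGT genes. Within an amino acid the anticodons could differ: alanine AGC had 6 of 13 genes with a peak, alanine CGC 1 of 9 and alanine TGC 1 of 11. Valine CAC had 2 of 11 and isoleucine AAT had 7 of 15. Both threonine AGT genes that counted, of 9, did so through a neighbour's summit. Methionine CAT, with 5 of 16, covers both the initiator and the elongator tRNA, which the symbols do not tell apart, and no selenocysteine gene stood among the 403.

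The strongest summit of each amino acid is a maximum picked from peaks already called, so that it is high is not a result. These maxima ran from 6.65 for tryptophan (n-TWcca7, 95% Poisson interval 5.16 to 8.43) to 13.2 for cysteine (n-TCgca54). The intervals on folds treat the ChIP pileup as an exact Poisson count over a fixed background and cover counting error only. The peak at n-TCgca54, whose gene spans chromosome 11: 97988923 to 97988994, 581 bp from the gene Arl5c, held 82 ChIP fragments over a background of 5.27 (interval on the fold 10.6 to 16.4). It ranked 13 in the whole list, while all but 1 of the other cysteine genes had no peak. The neighbouring n-TCgca55 was 619 bp from that summit. Next came n-TIaat11 on chromosome 13: 21855320 to 21855393 with a fold of 12.2 (8.74 to 16.7), but on 38 fragments over the low background of 2.19. The alanine gene n-TAtgc9 on chromosome 11: 48834429 to 48834500 had 12.02 (9.68 to 14.8) on 89 fragments, and the leucine gene n-TLcaa1 on chromosome 13: 21200204 to 21200308 had 11.5 (8.62 to 15.1). These intervals overlap, so counting error does not order the 4 genes.

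Among the 15 summits of highest fold, the 11 that followed lay between 9.95 and 11.3. They were at n-TAagc15, n-THgtg3, n-TMcat11, n-TEctc13, n-TDgtc4, n-TDgtc16, n-TRccg1, n-TIaat8, n-TKctt17, n-THgtg5 and n-TLcag9. Only the histidine GTG, aspartate GTC and isoleucine AAT genes appear more than once among all 15, the last through n-TIaat11 and n-TIaat8. The remaining amino acids had maxima of 9.82 for valine (n-TVtac3, the single X-linked tRNA gene with a peak), 9.73 for both asparagine (n-TNgtt6) and tyrosine (n-TYgta10), 9.47 for proline (n-TPagg6), 9.24 for glycine (n-TGtcc6) and 9.20 for threonine (n-TTtgt3). Serine reached 9.06 (n-TSaga9), phenylalanine 8.14 (n-TFgaa7) and glutamine 7.12 (n-TQctg9).

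Most cysteine genes without a peak stand in a single stretch of the genome. Of the 57 cysteine genes, 48 stand in an array on chromosome 6 from 48133937 to 48363603, and none of these had a peak. A count of 0 of 48 allows a share of up to 6.25% by counting error alone, which holds only if reads could be placed there and the genes were separate draws. Of the 9 other cysteine genes 2 had a peak: n-TCgca54 above, and n-TCgca57 (fold 5.95) on chromosome 6: 47978997 to 47979068, outside the array. Alanine had a like pattern on the X chromosome, where arrays of 8 genes (136357602 to 136430436) and 4 genes (136553725 to 136590436) held alanine genes only and no peak. Outside them 8 of 21 alanine genes had a peak, 38.1%. Leaving out these 3 arrays, 60 genes, raised the share over all tRNA genes to 39.7%, 136 of 343. No other KMT2D peak lay within 50 kb of any of the 3 arrays. How reads that align equally well to several copies were handled is not given in the sources used here. An array without KMT2D and an array whose reads were not placed therefore cannot be told apart.

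Clusters of tRNA genes differed widely in their share of genes with a peak. Genes on a chromosome with gaps of at most 50 kb between neighbours were taken as a cluster, which gave 33 clusters of 2 or more genes, 26 of them with a peak, and 97 lone genes. Clustered genes had a peak in 103 of 306 cases (33.7%) and lone genes in 33 of 97 (34.02%), a difference of -0.36 percentage points (95% interval -11.5 to 9.88). This interval treats genes as separate draws, which genes of a cluster that share a summit are not, so it is too narrow. With each summit given to its nearest gene alone, the shares were 23.9% in clusters and 34.02% among lone genes. A lone gene has no tRNA neighbour to lose a summit to, so this assignment could lower the clustered share only. The 14 clusters of 5 or more genes held 260 genes, 73 with a peak.

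The cluster with most peaks was on chromosome 11 from 69037003 to 69125248, beside Ctc1, Aurkb, Borcs6, Per1, Hes7 and Aloxe3. There 16 of 18 genes had a peak (88.9%, Wilson 95% interval 67.2% to 96.9%), from 10 summits and for 11 amino acids. Here too the interval treats genes that share a summit as separate draws. The summits on this cluster ran in fold from 3.07 at n-TRtct4 to 9.89 at n-TKctt27. Summits lay inside n-TIaat5 (9.44), n-TPcgg3 (7.54), n-TGtcc6 (9.24), n-TWcca7 (6.65), n-TSgct3 (8.91), n-TScga3 (6.55), n-TGgcc5 (7.61) and n-TLtag3 (7.45). The genes n-TSaga4, n-TDgtc9, n-TTagt7, n-TWcca6, n-TTagt5 and n-TQctg6 counted through these neighbours. Only n-TTagt8 and n-TIaat4 had no summit in the window, at 810 and 685 bp from the closest.

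A second cluster on chromosome 11, from 48818542 to 48857055, had a peak at 7 of 8 genes, from 5 summits with folds from 8.36 to 12.02. On chromosome 17, 5 of 7 genes from 23533962 to 23550335 had a peak, each with its own summit: n-TPcgg1 (6.83), n-TPtgg6 (7.29), n-TKctt14 (9.92), n-TRcct2 (8.59) and n-TRccg2 (8.54). The 3 histidine genes of a short cluster on chromosome 2, n-THgtg4, n-THgtg3 and n-THgtg5, all had their own summit, with folds of 9.86, 11.3 and 10.3.

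The large clusters on chromosome 13 were sparser in called peaks. Its 4 clusters of 5 or more genes held 101 genes, 21 of them with a peak (20.8%), against 23 of 26 genes (88.5%) in the 2 such clusters on chromosome 11. By nearest gene alone these were 16 of 101 and 15 of 26. Backgrounds at the summits ran from 2.19 to 5.19 fragments in the former clusters and from 4.04 to 9.08 in the latter. Whether lower coverage or unplaced reads left fewer peaks to be called on chromosome 13 was not tested. The lowest of the 4 had 3 of 32 (21848022 to 22050767) and the highest 7 of 24 (21160785 to 21326789). In the largest, 9 of 36 genes (23397060 to 23530419) had a peak, led by n-TIaat8 (11.02) and n-TLcag10 (9.75). Its folds of 4.69 to 11.02 overlapped those of the chromosome 11 clusters. The clusters on chromosomes 1 and 3, with 25 genes each, had 7 and 6 genes with a peak. In the chromosome 3 cluster all but 1 of these lay together at its far end, as the map of clusters shows.

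**Figure D4:**
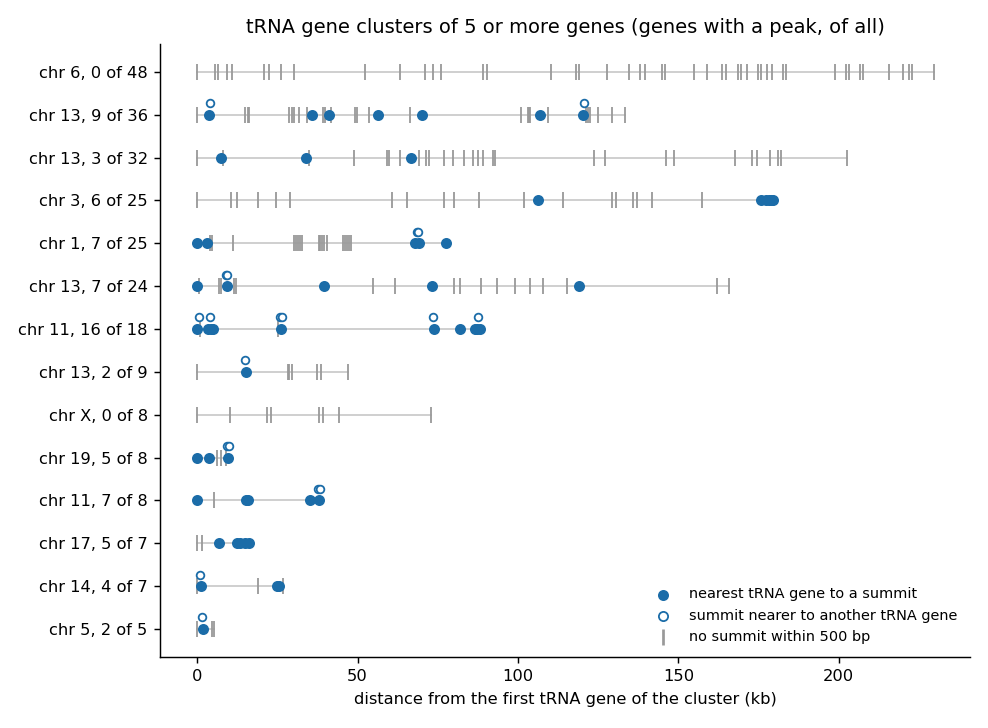
The 14 tRNA gene clusters of 5 or more genes, 1 per row, with distance from the first gene of the cluster in kb on the x axis. Filled circles are genes nearest to a summit, open circles (drawn slightly above the line) genes within 500 bp of a summit nearer to another tRNA gene, and ticks genes with no summit within 500 bp. Labels give genes with a peak of all genes, from 16 of 18 on chromosome 11 to 0 of 48 on chromosome 6.

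Genes with a peak were set beside genes without on features the peaks did not define. The clearest was nearness to protein-coding genes: the median distance to the nearest end of a protein-coding gene was 5849 bp for tRNA genes with a peak and 15965 bp for those without. The interquartile ranges were 992 to 13716 bp with a peak and 7085 to 52845 bp without. The share with a peak was 62.7% (42 of 67; Wilson 95% interval 50.7% to 73.3%) within 2 kb of such an end, 41.5% (49 of 118) between 2 and 10 kb, 30.8% (45 of 146) between 10 and 50 kb and 0 of 72 beyond 50 kb. Of these 72, the 3 arrays on chromosomes 6 and X held all but 24. Without the arrays the shares were 63.6%, 41.9%, 33.1% and 0 of 24. Within the clusters that held both kinds of gene, the medians were closer, 7683 bp with a peak and 11021 bp without. Neighbouring genes in a cluster share their surroundings, so these genes are not independent of each other.

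**Figure D5:**
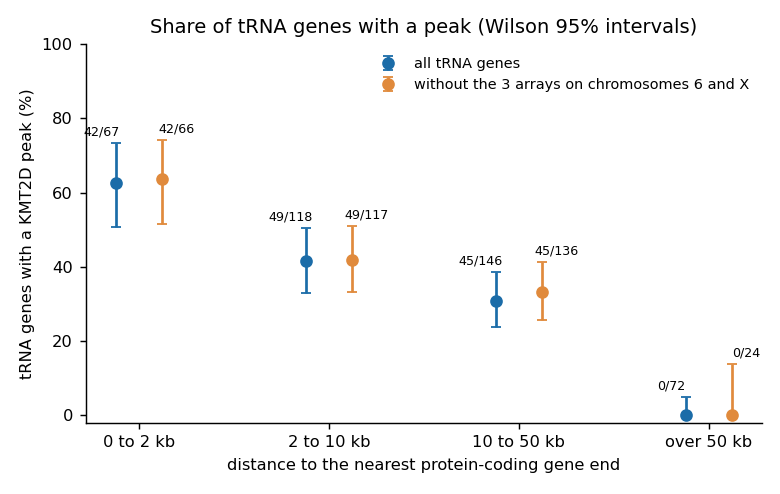
Share of tRNA genes with a KMT2D peak (y axis, percent) by distance to the nearest protein-coding gene end (x axis), for all tRNA genes and without the 3 arrays on chromosomes 6 and X. Error bars are Wilson 95% intervals and the labels give genes with a peak over all genes, from 42/67 within 2 kb to 0/72 beyond 50 kb.

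Several tRNA genes with a peak lay almost at the edge of a protein-coding gene. Of 21 tRNA genes within 300 bp of a protein-coding gene end, 17 had a peak. These included n-TSaga9 (20 bp from 2610301B20Rik, fold 9.06), n-TGgcc5 (42 bp from Hes7, a transcriptional repressor of the segmentation clock, 7.61), n-TAagc15 (52 bp from Agbl5, 11.3) and n-TNgtt7 (54 bp from Ndufs7, a subunit of respiratory complex I, 7.37). The 4 without a peak were n-TNgtt8 (15 bp from Pcgf2), n-TCgca51 (28 bp from Lasp1), n-TLcag6 (69 bp from Fcgr3) and n-TGccc4 (240 bp from Tia1).

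Other KMT2D peaks, those not at tRNA genes, were uncommon near either kind. At least 1 lay within 50 kb of 68 tRNA genes, of which 38 had a peak themselves (55.9%, Wilson 95% interval 44.1% to 67.1%). Of the 335 tRNA genes with no such peak near them, 98 had a peak (29.3%, 24.6% to 34.3%). Without the 3 arrays this second share was 35.6%, 98 of 275, and within clusters that held both kinds of gene the shares were 44.2% (19 of 43) with such a peak and 34.3% (57 of 166) without. Neighbouring tRNA genes share the same other peaks, so they are not separate draws and these intervals are too narrow. In the chromosome 11 cluster with 16 of 18 genes with a peak, the median gene had 2 other peaks within 50 kb. Only 2 such peaks lay in or within 50 kb of that whole cluster. The number of other tRNA genes within 10 kb had a median of 2 with a peak and 2 without. Genes with a peak had a median of 9 genes of the same anticodon, and those without had 11.

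The share with a peak was highest in the longest tRNA genes over all clusters, but the classes of length lay closer within clusters. Genes of 85 bp or longer, a length reached where the gene holds an intron, had a peak in 14 of 22 cases (63.6%). Of these, tyrosine GTA had 6 of 10, leucine CAA 3 of 4, arginine TCT 3 of 4, isoleucine AAT 2 of 3 and isoleucine TAT, which is n-TItat14 shown above, 0 of 1. Leucine and serine tRNAs have a long variable arm, and among their genes of 82 to 83 bp 11 of 21 leucine genes (52.4%) and 7 of 21 serine genes (33.3%) had a peak. Genes under 75 bp had a peak in 104 of 339 cases (30.7%), and in 104 of 279 (37.3%) without the 3 arrays. In clusters that held genes with and without a peak, the shares were 7 of 15 (46.7%) at 85 bp or longer, 9 of 28 (32.1%) at 82 to 83 bp and 60 of 166 (36.1%) under 75 bp. Length and amino acid go together in part in this list, since all 10 tyrosine genes were long. Leucine, arginine and isoleucine held shorter genes too. For leucine 3 of 4 long genes and 11 of 21 genes of 82 to 83 bp had a peak. These are few genes, and length was not tested apart from amino acid. Of the 14 long genes with a peak, 4 counted through a neighbour's summit.

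The genes that make, process and charge tRNAs were read for peaks at their own ends. Of 94 such genes 10 had a summit within 2 kb of an end (10.6%), against 5.08% of all protein-coding genes. Of 18 RNA polymerase III subunits, shared subunits included, 2 had a peak. Polr3e, a subunit specific to this polymerase, had a fold of 8.24 (6.16 to 10.8), and this summit lay inside n-TLaag4, the leucine gene shown above, 208 bp from the end of Polr3e. Polr2l, a subunit shared by all nuclear RNA polymerases, had 5.43, with its summit 1287 bp away. Of 6 TFIIIC subunits Gtf3c4 (3.96) and Gtf3c5 (2.60) had a peak. None of 10 genes for TFIIIB, TFIIIA and SNAPc had one.

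Among 7 regulators of the polymerase only Rbl1, a retinoblastoma-like repressor, had a peak (2.81). Of 23 genes for end processing, splicing and the La protein, Tsen54, a subunit of the tRNA splicing endonuclease, had one (3.35). None of 3 export genes had any. The cytosolic aminoacyl-tRNA synthetases, which charge tRNAs, had 3 of 20: Wars for tryptophan (5.33), Yars for tyrosine (3.60) and Aars for alanine (3.03). Of 7 partners of the selenocysteine and initiator tRNAs, Eefsec, the selenocysteine elongation factor, had a peak (2.95). Apart from Polr3e, these folds of 2.60 to 5.43 lay below the 6.17 that marks the lower quartile at tRNA genes. With Polr3e included, the median over all the lists was 3.48, close to the 3.73 at ends of all protein-coding genes with a peak.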

How the data were processed

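The deposited file is 1 peak list that the authors made from 1 KMT2D ChIP and 1 input library of wild-type HT22 cells. Nuclear lysates were sonicated, precleared and precipitated with an antibody against KMT2D, and NEBNext libraries were made, per the labels' protocols. The build mm10 and the tools MACS2, Bowtie2 and Picard are named in the submitters' processing notes. How they were set, and how multi-copy reads were treated, is not given in the sources used here. Columns deposited are positions, the fold of ChIP over background at the summit, and −log10 p-values and q-values, used as the authors gave them.

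Positions are counted from 1. Whole ChIP pileups and backgrounds were recovered by solving the fold and the p-value together, within 0.001 of the deposited −log10 p for 3690 of 3738 peaks (98.7%), which include all 106 at tRNA genes. Library totals are not in the list, so depth is known only through these pileups. Genes came from RefSeq GRCm38.p6. Left out were 22 mitochondrial tRNA genes and 5 on unplaced sequence. Strand was not used except where a sequence was printed. Intervals are 95% Wilson for shares and exact Poisson for pileups, covering counting error only, and where no gene had a peak the limit given is 3 over the number of genes. The recovery of pileups and the matching of summits to gene windows were checked on simulated data, with Python 3.11.15, scipy 1.17.1 and pandas 2.3.3. The simulated pileups used the same formula as the recovery, so the formula itself was not checked.

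The members, lists, windows and named genes were chosen with earlier results of these data known. Named were the genes at the 15 summits of highest fold, the strongest of each amino acid by nearest gene, the cluster with most genes with a peak and the largest without, the genes nearest the 500 bp limit, and machinery genes with a peak. Genes within 300 bp of a coding gene, long genes, the other clusters, the sequence pattern GTTCNANNC and the arrays were chosen after their values were seen. Alternatives were other windows, the whole peak interval, nearest-gene assignment, stricter thresholds, other cluster gaps, and chromosome 15, cysteine genes or arrays left out.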

Additional observations from a re-analysis of the deposited data

How the results depend on the processing

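Of 105 recomputed values other than shares by amino acid, 1 moved beyond its limit: with gaps of at most 10 kb in place of 50 kb, 40 clusters of 2 or more tRNA genes had a peak, where 26 had one. The limits were wide enough to hold all the ranges of genes, summits, folds, distances and differences that follow. Staying within them therefore does not show that a value was stable. The number of tRNA genes with a peak ran from 102, with the summit inside the span, to 149, with a 1 kb window, and the number of summits from 86, with folds in the upper quartile of the list, to 108. The median fold stayed between 7.54 and 8.44. The ratio of median distances to a protein-coding gene end, genes with a peak over genes without, was 0.366 and ran from 0.342 to 0.501, highest without the arrays on chromosomes 6 and X, an alternative chosen after the data were seen. The difference between clustered and lone genes, which was not called, ran from -10.2 to 7.85 percentage points. The amino acid of highest share was not stable: arginine led with the nearest gene alone (54.2%), phenylalanine with a 1 kb window (71.4%), leucine among upper-quartile folds (52%), and proline when peaks under the median −log10 q were dropped (62.5%). Of 219 recomputed shares by amino acid, 8 left their Wilson interval, 7 lower and 1 higher, the last being cysteine without the arrays (22.2%). Machinery genes with a peak numbered 8 with a 1 kb and 12 with a 5 kb window. The shares of all protein-coding genes at these 2 windows were not computed, so nothing is read from these counts. No paired analysis was possible because there is 1 ChIP and 1 input library, and none could be left out. Genes without a called peak have no deposited value, so a weaker signal there was not detectable in this list.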
